A study of Caenorhabditis elegans with 2 samples.

Results

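Regions at the genes of 3 classes of small structured RNA, the tRNAs, snRNAs and snoRNAs, were described. They came from a ChIP-seq list of the tagged nuclear hormone receptor NHR-10 in Caenorhabditis elegans. A region was a member where its summit, the position of its highest signal, lay within 200 bp of a gene of one of these biotypes in the Ensembl annotation of the ce11 build (WBcel235). Of the 17445 regions of the list called on both replicates together, 433 (2.48%) were members. They comprised 248 regions at tRNA genes, 47 at snRNA genes and 140 at snoRNA genes. A single region lay at both a snRNA and a snoRNA gene, and another at both a tRNA and a snRNA gene, and each counts under both classes.

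The study holds 1 group of 2 biological replicates. Each is a pool of whole L4 larvae of both sexes of strain OP239, which carries the mutation unc-119(ed3) on chromosome III and the insertion wgIs239, from which NHR-10 is made as a fusion to the green fluorescent protein eGFP. The strain is a transgenic line with no untagged group beside it here, and whole larvae do not show in which tissue a region was occupied. The deposited lists hold regions with a signal value whose scale is not stated, so each region is described by its rank within its own list, with 1 the strongest. They hold no read counts, and the depth of each sample is unknown. The pooled list holds peaks and background together, as input for the irreproducible discovery rate procedure. A region of the pooled list is therefore not by itself a bound site. The optimal list of the authors, their selection after that procedure, was made of the 994 strongest pooled regions. Its lowest signal was 49.6 and the highest in the pooled list was 333.

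A nuclear hormone receptor is a transcription factor with a zinc finger DNA-binding domain, and NHR-10 is known for its part in the response of the worm to propionate. tRNA genes are transcribed by RNA polymerase III from elements inside the gene, the A box and the B box, which are bound by TFIIIC. snRNA genes, which encode RNAs of the spliceosome and, in nematodes, the spliced leaders joined to the starts of many mRNAs, carry a proximal sequence element upstream of the gene that is bound by the SNAPc complex. snoRNAs guide chemical modification of ribosomal and other RNAs, and their genes lie in introns of host genes or stand alone.

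The sequences of 3 strong members of each class show the start of the gene or the whole gene, where these elements lie. The summits of F07A11.15, sls-2.1, R04A9.t1 and M02F4.t2 lie outside the printed bases. For the snRNA genes sls-2.2 (II:5543518-5543617, plus strand), sls-2.1 (II:5844785-5844884, plus strand) and F38E11.10 (IV:9444562-9444661, plus strand), the 80 bases before the gene are followed by its first 20 bases, which are in capitals. The genes sls-2.1 and sls-2.2 encode the spliced leader SL2, the leader that is joined to downstream genes of operons.
sls-2.2: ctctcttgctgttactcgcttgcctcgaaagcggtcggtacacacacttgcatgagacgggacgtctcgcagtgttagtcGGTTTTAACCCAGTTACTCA
sls-2.1: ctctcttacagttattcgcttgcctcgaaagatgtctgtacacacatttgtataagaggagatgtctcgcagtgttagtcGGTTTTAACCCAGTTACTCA
F38E11.10: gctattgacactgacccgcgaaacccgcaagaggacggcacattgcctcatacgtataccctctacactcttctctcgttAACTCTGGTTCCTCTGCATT

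For the snoRNA genes F07A11.15 (II:11619945-11620044, plus strand), T03F7.8 (V:11314178-11314277, plus strand) and F17C11.24 (V:10940610-10940709, minus strand), the capitals likewise mark the first 20 bases of the gene after 80 upstream bases.
F07A11.15: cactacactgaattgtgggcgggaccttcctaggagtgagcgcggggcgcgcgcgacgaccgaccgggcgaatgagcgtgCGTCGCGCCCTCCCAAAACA
T03F7.8: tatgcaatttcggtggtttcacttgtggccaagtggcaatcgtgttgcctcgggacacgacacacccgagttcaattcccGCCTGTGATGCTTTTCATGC
F17C11.24: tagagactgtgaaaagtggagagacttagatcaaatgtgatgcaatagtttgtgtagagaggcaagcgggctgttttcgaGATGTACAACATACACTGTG

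For the tRNA genes M02F4.t2 (tRNA-Glu, X:3035976-3036077, minus strand), F57F5.t1 (tRNA-Ile, V:12002146-12002260, plus strand) and R04A9.t1 (tRNA-Gln, X:410361-410462, plus strand), 30 upstream bases are followed by the whole gene, and the capitals mark the B box letters GTTCNANNC inside it. They start at base 52 of M02F4.t2, base 65 of F57F5.t1 and base 52 of R04A9.t1.
M02F4.t2: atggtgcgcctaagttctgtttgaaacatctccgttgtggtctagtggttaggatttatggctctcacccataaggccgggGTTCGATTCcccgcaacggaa
F57F5.t1: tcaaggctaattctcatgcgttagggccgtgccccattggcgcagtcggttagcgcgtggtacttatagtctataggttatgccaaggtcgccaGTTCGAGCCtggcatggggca
R04A9.t1: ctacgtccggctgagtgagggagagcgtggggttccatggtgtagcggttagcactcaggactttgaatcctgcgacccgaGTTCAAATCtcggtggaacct

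The 3 classes differed in how high their regions ranked. The median member stood at rank 2851 of 17445 among snRNA regions, at 5109.5 among snoRNA regions and at 6482 among tRNA regions, against 8723 over all pooled regions. The corresponding quartiles were 498 and 6652 for snRNA, 1780.5 and 10678 for snoRNA, and 3072 and 10928 for tRNA regions, against 4362 and 13084 over all regions. All 3 classes thus spread over most of the list, and the snRNA regions held the strongest ranks. The best rank was 29 for snRNA, 52 for snoRNA and 180 for tRNA regions, and 5 members were among the 100 strongest regions.

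**Figure D1:**
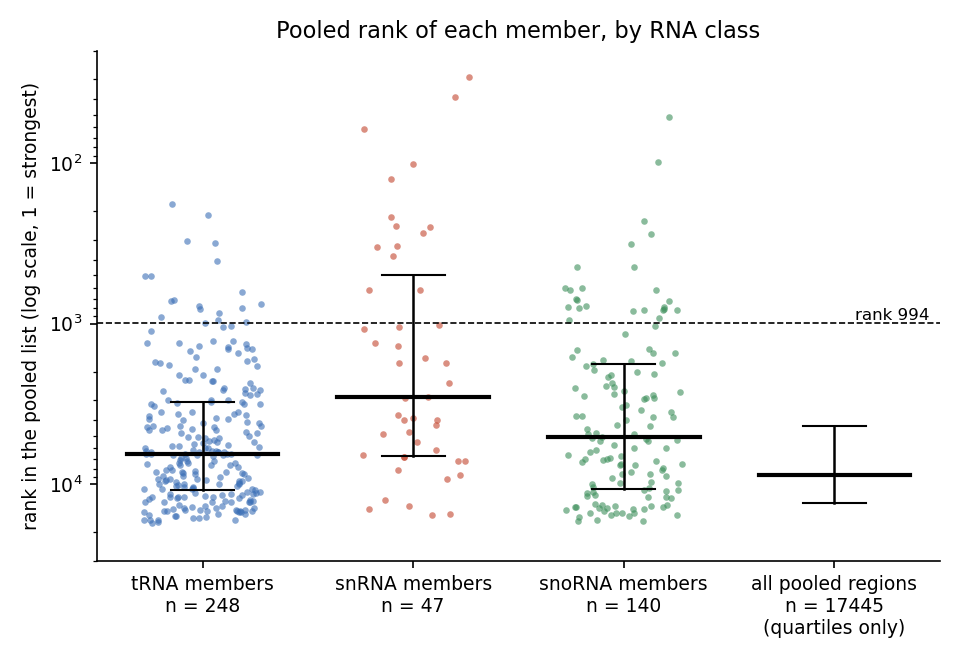
Rank in the pooled list (log scale, strongest at the top) of each member by RNA class, with the quartiles and median of all 17445 pooled regions at the right. Points are regions, thick lines are medians, thin lines span the quartiles, and the dashed line is rank 994. The median of the 47 snRNA members, 2851, stands above those of the 140 snoRNA and 248 tRNA members, 5109.5 and 6482.

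The optimal list held 14 of 47 snRNA regions (29.8%, exact 95% binomial interval 17.3 to 44.9%), 25 of 140 snoRNA regions (17.9%, 11.9 to 25.2%) and 19 of 248 tRNA regions (7.66%, 4.68 to 11.7%). Over all pooled regions the share was 5.70%. The snRNA and snoRNA intervals lay above that share, and the tRNA interval included it. The snoRNA share was smaller in the replicate lists. It was 11.3% (6.58 to 17.7%) in replicate 2's list alone, without replicate 1, and 10.5% (5.99 to 16.7%) in replicate 1's list alone, without replicate 2, against 4.45% and 4.66% of all regions of those lists. Among the 497 strongest pooled regions it was 5.0% (7 of 140, 2.03 to 10%), an interval that includes the 2.85% of all pooled regions at that limit. At the same limit the tRNA share was 2.02% (0.658 to 4.64%), an interval that also includes 2.85%, and the snRNA share was 25.5% (13.9 to 40.3%). Over all 433 members the optimal list held 57 regions, 13.2% (10.1 to 16.7%), which were 5.73% of the 994 optimal peaks. These intervals cover counting error only, since the regions come from the same libraries and some members overlap each other.

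Counted by gene, 250 of 612 nuclear tRNA genes (40.8%) had a region, and 21 (3.43%) had an optimal one. Of 129 genes of the snRNA biotype, 35 (27.1%) had a region and 11 (8.53%) an optimal one. They include mir-1831, a microRNA gene inside sup-39 that carries this biotype and is reached by the same region. Without it, 34 of 128 had a region. Of 346 snoRNA genes, 129 (37.3%) had a region and 23 (6.65%) an optimal one. The snRNA genes were thus the class with the smallest share of genes in the pooled list and the largest share in the optimal list. The windows within 200 bp of these genes covered 0.272% (tRNA), 0.0655% (snRNA) and 0.182% (snoRNA) of the 6 chromosomes, beside 1.42%, 0.269% and 0.803% of the pooled regions in the same order.

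At the edge of the rule, 27 tRNA regions lay 151 to 200 bp from the gene, none of them optimal, and 18 lay 201 to 250 bp away, 3 of them optimal. For snoRNA genes these bands held 13 regions, 2 optimal, and 19 regions, 3 optimal. For snRNA genes they held 3 regions, 1 optimal, and 1 region, which was not optimal.

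Among snRNA genes, the strongest regions belonged to the genes of the SL2 leader. sls-2.4 (region I:4172243-4172378) stood at rank 15 in replicate 1 and 57 in replicate 2, and at rank 29 with a signal of 175 in the pooled list. sls-2.2 (region II:5543361-5543784) ranked 51 in replicate 1, 30 in replicate 2 and 39 in the pooled list, where its signal was 152. sls-2.1 (region II:5844762-5845185) ranked 31 in replicate 1, 139 in replicate 2 and 61 in the pooled list, with a signal of 134. All 3 were therefore near the top of both replicate lists.

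Further SL2 genes followed. sls-2.3 stood at pooled rank 272 (replicate ranks 182 and 749), sls-2.16 at 327 (176 and 606) and sls-2.7 at 335 (342 and 552). sls-2.2 had a second region at rank 101 beyond the end of the gene, which overlaps the same replicate regions as its first. Of the 18 genes named sls-2, 13 (72.2%) had a pooled region and 6 (33.3%) an optimal one. None of the 12 genes named sls-1, which encode the leader SL1 and lie in a repeated array with 5S rRNA genes, had a region. All 12 have an identical copy elsewhere, and reads from identical copies cannot be told apart. The part this has in the absence of a region was not tested.

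Outside the spliced leaders, 22 of 99 snRNA genes had a region and 5 an optimal one, or 21 of 98 and 5 without mir-1831. The gene F38E11.10 had 2 optimal regions, at pooled ranks 125 and 248, over replicate ranks 86 and 245. sup-6, which encodes the spliceosomal U1 RNA, had optimal regions at ranks 216 and 379, over replicate ranks 203 and 356. W05B2.8 stood at rank 251 (replicate ranks 156 and 763) and smy-1 at rank 616 (692 and 757). F32B5.9, at pooled rank 622, had the widest gap between replicates of the optimal snRNA members, with rank 2240 in replicate 1 and 206 in replicate 2. The nearest snRNA member below the optimal list was C52E4.8 at rank 1027, with a signal of 49.2.

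The annotation does not state which spliceosomal RNA most of these genes encode, so the genes were grouped by their first 10 bases. The group beginning GGTTTTAACC, which holds most sls-2 genes, had a region at 11 of 14 genes and an optimal one at 6. In the group of sup-6, which begins AAACTTACCT, 5 of 11 genes had a region and 1 an optimal one. AGCTTTGCGC, the group of C52E4.8, had regions at 2 of 5 genes, none optimal. The large groups GTTCTTCCGA (W05B2.8) and ATCGCTTCTT (F08G2.10) had regions at 3 of 18 and 3 of 20 genes, with an optimal region at 1 and 0 genes. AACTCTGGTT, the group of F38E11.10, had both its regions at 1 of 8 genes. The small group CAACTCTGGT, which reads the same after a leading C, had regions at 2 of 2 genes, F32B5.9 and F42C5.12, with an optimal one at 1. Identical copies made up 17 of 18 genes of the W05B2.8 group and 9 of 20 of the F08G2.10 group, but none of the sls-2 and sup-6 groups. Over all snRNA genes, 29 of 85 with a sequence of their own (34.1%) had a region, against 6 of 44 with an identical copy (13.6%).

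**Figure D2:**
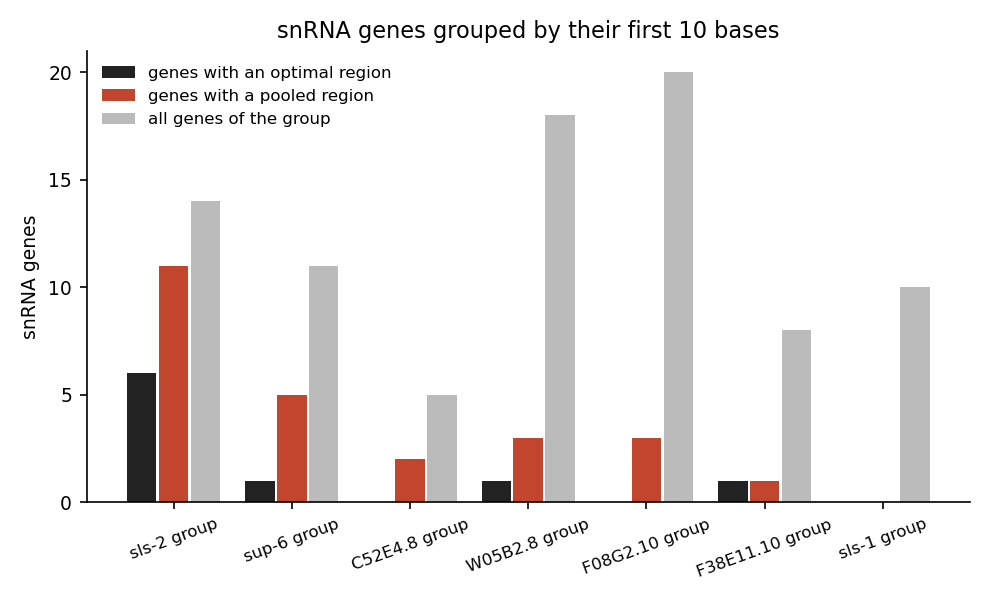
Number of snRNA genes with an optimal region, with any pooled region, and in all, for the 7 groups of at least 5 genes that share their first 10 bases. The sls-2 group has regions at 11 of 14 genes and the sls-1 group at 0 of 10.

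In the upstream sequences printed above, sls-2.1, sls-2.2 and F38E11.10 share the letters GNCNGNACA, which begin 47 bases before each gene. The letters were chosen after these sequences had been read, so the strongest snRNA genes hold them by choice. Searched on the gene strand in the 100 bases before each gene, they were found at 47 of 129 snRNA genes (36.4%), with a median start 46 bases before the gene. They were found at 20 of 35 snRNA genes with a region (57.1%) and at 27 of 94 without one (28.7%). The shares were 0.980% of 612 tRNA genes, 1.45% of 346 snoRNA genes and 0.611% of 19973 protein-coding genes. The proximal sequence element of nematode snRNA genes is known to lie in this stretch. The letters thus mark many snRNA genes with and without a region, and are rare before the other classes.

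Among snoRNA genes, F59C6.15 (region I:10516981-10517404) had the strongest region, with rank 73 in replicate 1, 58 in replicate 2 and 52 in the pooled list, where its signal was 140.5. F07A11.15 (region II:11620008-11620431) ranked 147 in replicate 1, 113 in replicate 2 and 98 in the pooled list, with a signal of 109.8. T03F7.8 (region V:11314014-11314437) ranked 282, 319 and 230, and F17C11.24 (region V:10940463-10940886) ranked 404, 234 and 275, in the order replicate 1, replicate 2 and pooled. W06H8.17 stood at pooled rank 321 (replicate ranks 97 and 174) and ZK994.7 at 446 (589 and 446). These 6 regions were each among the 994 strongest of both replicates.

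The other optimal snoRNA members stood between ranks 447 and 948. They were regions of M7.15, Y75B12B.12, T26A8.6, smy-2, ZK20.9, F47G4.9, T06C12.16, T08B6.64, Y53F4B.47, F25H2.15, T28B8.11, C08D8.3, K02C4.8, F39B2.14, ZK484.9, C16D9.11 and M106.6, with a pair of regions each at T26A8.6 and F25H2.15. The region of smy-2, a gene counted here by its snoRNA biotype, is the one shared with the snRNA gene smy-1. Its summit lay 197 bp beyond the end of smy-1, close to the limit of the rule. F47G4.9 had the widest replicate gap of the optimal snoRNA members, with rank 349 in replicate 1 and 5409 in replicate 2. The last optimal region was at F25H2.15 (rank 948, signal 50.6), and the next below the list was at D1046.6 (rank 1034, signal 49.0).

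The strongest tRNA region, at M02F4.t2 (tRNA-Glu, region X:3035866-3036289), ranked 121 in replicate 1, 531 in replicate 2 and 180 in the pooled list, with a signal of 92.9. F57F5.t1 (tRNA-Ile, region V:12001981-12002404) ranked 337, 260 and 212, and R04A9.t1 (tRNA-Gln, region X:410072-410495) ranked 287, 288 and 308, in the order replicate 1, replicate 2 and pooled. Both genes were thus at similar ranks in the replicates, while M02F4.t2 ranked higher in replicate 1. The next 7 were F46G11.t2 (tRNA-Pro, pooled rank 317), F41D9.t3 (tRNA-Asn, 407), B0350.t1 (tRNA-Lys, 506), C33G3.t2 (tRNA-Lys, 508), F01G12.t1 (tRNA-Glu, 636), C43G2.t1 (tRNA-Leu, 715) and R11.t1 (tRNA-Tyr, 728). C28G1.t1 (tRNA-Glu, pooled rank 811) had the widest gap between replicates of the optimal tRNA members, at ranks 495 and 2706. C02B4.t2 (tRNA-Tyr, rank 986, signal 49.8) was the last optimal member of any class, and T23F1.t1 (tRNA-Lys, rank 1032, signal 49.1) was the first tRNA member below it.

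No amino acid accounted for most of the optimal tRNA genes. tRNA-Glu had the most, with 4 of 41 genes, followed by tRNA-Lys with 3 of 46. The larger families without an optimal region were tRNA-Arg (44 genes, 19 with a region), tRNA-Ser (39, 17), tRNA-Thr (34, 13) and tRNA-Val (31, 13). Of the 612 tRNA genes, 276 lie on the X chromosome. On X, 126 (45.7%) had a region and 16 (5.80%) an optimal one, against 124 of 336 (36.9%) and 5 (1.49%) on the autosomes. By region, 13 of 125 tRNA members on X (10.4%, interval 5.65 to 17.1%) and 6 of 123 on autosomes (4.88%, 1.81 to 10.3%) were optimal, and the intervals overlap. Over all pooled regions the shares were 6.39% on X and 5.51% on autosomes.

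Identical copies make up 469 of the 612 tRNA genes. Of these, 207 (44.1%) had a region and 19 (4.05%) an optimal one, against 43 (30.1%) and 2 (1.40%) of 143 single-copy tRNA genes. The median rank was 6264 for 203 regions nearest to a copied gene and 8164 for 45 nearest to a single-copy gene. In 399 of the 433 members, all classes together, the 61 bases centred on the summit occur once in the genome. The T18D3.t1, T23H4.t1 and C02B4.t2 regions were exceptions in the optimal list, with 2, 16 and 7 occurrences. The 433 include 140 snoRNA members, and no snoRNA gene has an identical copy. The count over all classes therefore does not give the share for regions at copied tRNA genes.

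The summits lay at different places relative to the gene in the 3 classes. Among snoRNA members, 81 of 140 summits (57.9%) were upstream of the gene, 30 (21.4%) inside and 29 (20.7%) downstream. In the optimal list 20 of 25 were upstream and 5 inside, with none downstream, and 15 of the 25 were 1 to 60 bp before the gene. F59C6.15, F17C11.24 and W06H8.17 had their summits 43, 46 and 49 bp before the gene. Among tRNA members, 101 of 248 summits (40.7%) were upstream, 87 (35.1%) inside and 60 (24.2%) downstream, with 9, 9 and 1 optimal. The optimal regions inside tRNA genes include B0350.t1, 6 bases from the gene start.

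Summits at snRNA genes were spread evenly, with 15 upstream, 16 inside and 16 downstream, of which 6, 3 and 5 were optimal. A pair of regions stood at 13 of the 35 snRNA genes with a region (37.1%). In tRNA genes 24 of 250 (9.60%) and in snoRNA genes 14 of 129 (10.9%) had a pair. The 2 summits at such snRNA genes were a median of 209 bp apart, from 200 to 269 bp, and 7 of the 13 pairs had a summit on either side of the gene. Neighbouring summits in the pooled list are never closer than 199 bp, so summits nearer than that were not reported separately.

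**Figure D3:**
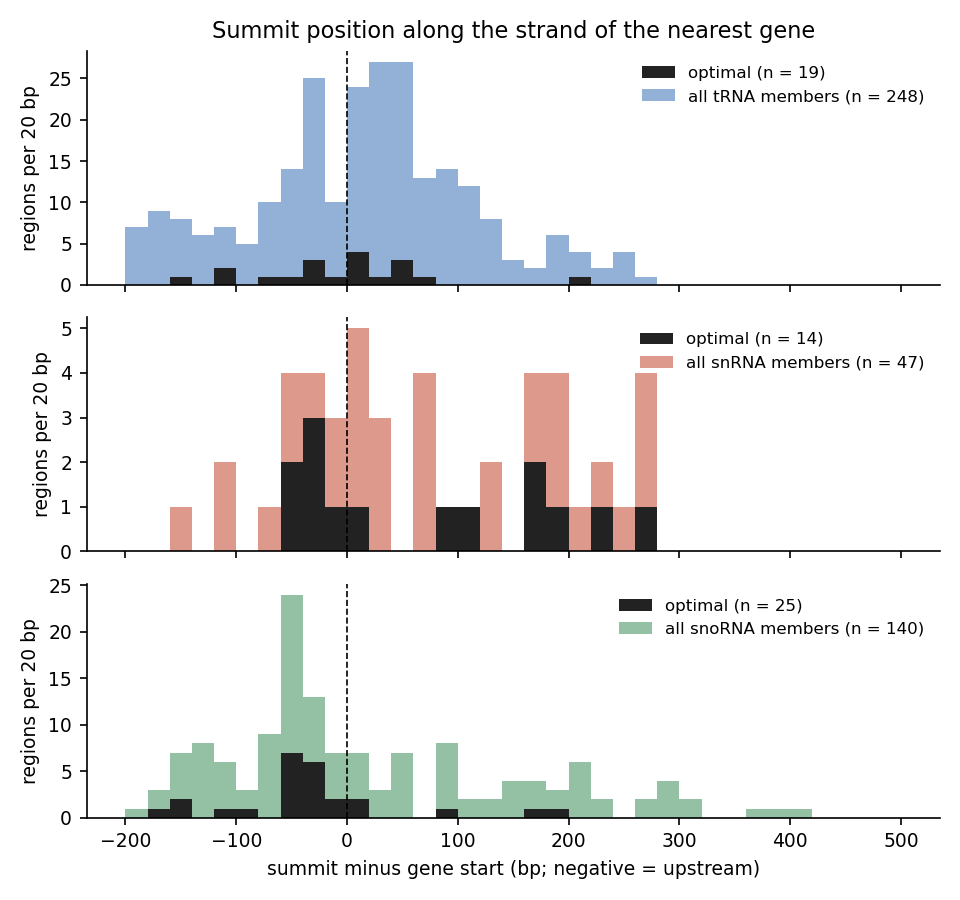
Distance of the summit from the start of the nearest gene, along its strand, in 20 bp bins for tRNA, snRNA and snoRNA members, with the optimal regions in black. Most optimal snoRNA summits (20 of 25) are left of the dashed gene start, while tRNA summits lie upstream of the gene and inside it.

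Both libraries placed most members on their own lists. Of 47 snRNA members, 40 overlapped a region of replicate 1, 42 one of replicate 2 and 35 both. The counts were 124, 123 and 109 of 140 snoRNA members, and 211, 204 and 168 of 248 tRNA members. Over all pooled regions, 13174, 13615 and 9887 of 17445 did so. Among the 994 strongest regions of replicate 1 were 18 snRNA (38.3%), 22 snoRNA (15.7%) and 28 tRNA members (11.3%), against 7.48% of all pooled regions. For replicate 2 the counts were 18 (38.3%), 22 (15.7%) and 21 (8.47%), against 7.62%.

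A member was among the strongest 994 of both replicates in 16 of 47 snRNA regions (34.0%, interval 20.9 to 49.3%), 13 of 140 snoRNA regions (9.29%, 5.04 to 15.4%) and 14 of 248 tRNA regions (5.65%, 3.12 to 9.29%), against 4.17% of all pooled regions. With an overlap of at least 0.5 of the member's width, the snoRNA share was 5.71% (8 of 140), against 3.38% of all pooled regions. Within the optimal list, 13 of 14 snRNA members (92.9%, 66.1 to 99.8%), 10 of 25 snoRNA members (40.0%, 21.1 to 61.3%) and 10 of 19 tRNA members (52.6%, 28.9 to 75.6%) met this, against 537 of 994 optimal peaks (54.0%). All optimal snRNA regions but F32B5.9 were thus among the strongest 994 of both replicates. Of the 25 optimal snoRNA regions, 15 were outside the strongest 994 of at least 1 replicate. The 14 optimal snRNA regions stood at pooled ranks 29 to 622, and the pooled list was called on the same 2 replicates. These shares were not matched for pooled rank, so they cannot tell replicate support apart from a high pooled rank. A pair of regions at 1 gene can share its replicate region, as at sls-2.2, sup-6 and F38E11.10, and 103 members overlap another member.

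**Figure D4:**
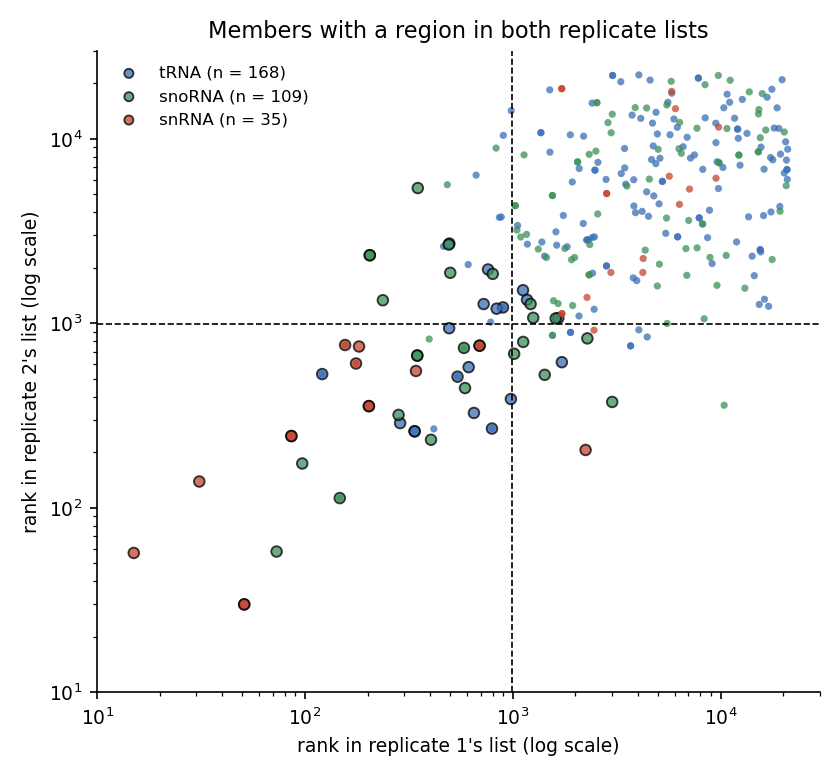
Rank of each member in replicate 1 (x axis) and replicate 2 (y axis), both on log scales, for the 168 tRNA, 35 snRNA and 109 snoRNA members with a region in both lists. Outlined points are in the optimal list, and dashed lines mark rank 994. Of 14 optimal snRNA members, 13 lie below rank 994 on both axes.

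Many of these genes lie in introns of protein-coding hosts. Intronic genes were nearest to 65 snoRNA members in 59 hosts, 114 tRNA members in 98 hosts and 22 snRNA members in 13 hosts. The host was on the same strand for 53 of 65 snoRNA, 53 of 114 tRNA and 14 of 22 snRNA members. Intronic snoRNA regions ranked lower, with a median rank of 6909, against 3547 for the 75 others. Their optimal share was 10.8% (7 of 65, interval 4.44 to 20.9%), against 24.0% (18 of 75, 14.9 to 35.3%) for the others. For tRNA regions the median rank was 7693 in introns and 5862 elsewhere, with optimal shares of 5.26% (6 of 114, 1.96 to 11.1%) and 9.70% (13 of 134, 5.27 to 16.0%). For snRNA regions the shares were 27.3% (6 of 22, 10.7 to 50.2%) and 32% (8 of 25, 14.9 to 53.5%). The intervals overlap in each class.

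The 7 optimal intronic snoRNA members were T03F7.8 in cutl-18, ZK994.7 in pxn-1, smy-2 in C33A12.3, C08D8.3 in C08D8.1, ZK484.9 in haf-9, C16D9.11 in rol-3 and M106.6 in mix-1. Optimal intronic snRNA members were the pair at sup-6 in F58G1.7, W05B2.8 in dhc-4, sls-2.16 in glr-2, smy-1 in C33A12.3 and F32B5.9 in cpz-1. glr-2, which encodes a glutamate receptor subunit, was the host with the most members, 5 regions at sls-2.16, sls-2.18 and sls-2.5. Their pooled ranks were 327 and 1632 at sls-2.16, 2341 and 6100 at sls-2.18, and 6800 at sls-2.5.

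**Figure D5:**
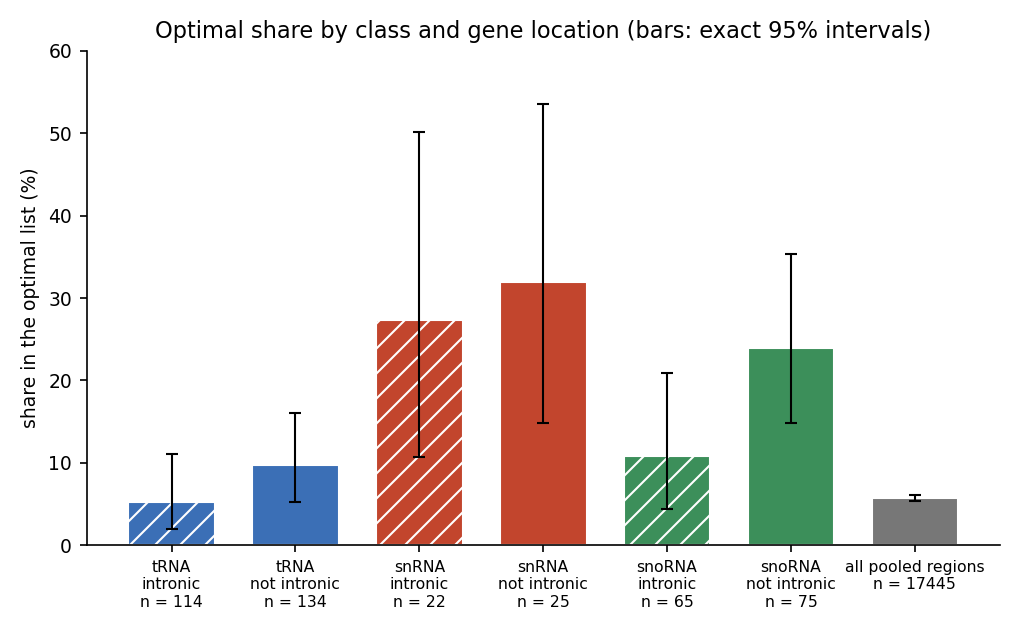
Share of regions in the optimal list for intronic (hatched) and other (plain) members of each class, with all 17445 pooled regions at the right. Lines are exact 95% binomial intervals. Intronic snoRNA members reach 10.8% and other snoRNA members 24.0%, with overlapping intervals.

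A summit can also lie near a protein-coding promoter, here reaching 1000 bp up and 200 bp down from where a transcript begins, and such a region may belong to either gene. This held for 140 of 433 members (32.3%), against 36.9% of all pooled regions, and for 23 of the 57 optimal members. By class it held for 22 of 47 snRNA (46.8%), 49 of 140 snoRNA (35.0%) and 70 of 248 tRNA members (28.2%). It held for the regions of sls-2.4, sls-2.1 and sls-2.7, but not for those of sls-2.2, sls-2.3 and sls-2.16. Of the 6 strongest snoRNA regions, it held for F59C6.15, F07A11.15, F17C11.24 and W06H8.17, but not for T03F7.8 and ZK994.7. Among the strongest tRNA regions, it held for F57F5.t1 and R04A9.t1, but not for M02F4.t2. The optimal region shared by smy-1 and smy-2 was also in such a window. Outside such windows 8 of 25 snRNA members (32%), 13 of 91 snoRNA members (14.3%) and 13 of 178 tRNA members (7.30%) were optimal, against 4.61% of all pooled regions outside the windows. The order of the classes was therefore the same away from protein-coding promoters.

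Sequence letters were searched on both strands within 150 bp of each summit. The half-site AGGTCA, a common core of nuclear receptor sites, was found at 13 of 47 snRNA members (27.7%), 30 of 248 tRNA members (12.1%) and 11 of 140 snoRNA members (7.86%), against 8.96% of all pooled regions. At 12 of the 13 snRNA members the half-site lay inside a snRNA gene, so this share depends on choosing regions at snRNA genes. It lay inside a tRNA gene at 15 of the 30 tRNA members, so the tRNA share depends in part on the same choice. At snoRNA members it lay inside a snoRNA gene in 2 of 11. The half-site was not searched at genes of these classes without a region. The GATA letters TGATAA were found at 7 snRNA (14.9%), 59 tRNA (23.8%) and 33 snoRNA members (23.6%), against 33.0% of all pooled regions. The B box letters GTTCNANNC were found at 80.6% of tRNA members and the A box letters TNGCNNAG at 53.2%, against 11.6% and 25.6% of all pooled regions. The tRNA shares follow from choosing regions at tRNA genes. The B box letters also stood at 36 of 140 snoRNA members (25.7%). Median GC content was 42.2% in members and 36.9% in all pooled regions.

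The upstream bases of T03F7.8 printed above hold the A box letters 55 bases and the B box letters 11 bases before the gene. This pairing was looked for after that sequence had been read. An A box followed 20 to 80 bases later by a B box, within 150 bases upstream on the gene strand, was found at 14 of 346 snoRNA genes (4.05%), and at 7 of 19973 protein-coding genes (0.0350%). No annotated tRNA gene lay in any of these 14 windows. Of the 14, 10 had a pooled region, among them F11A10.9 at rank 1959, C04G6.12 at 2345 and F32E10.10 at 3758, and T03F7.8 alone had an optimal one. The pair was found at 10 of 129 snoRNA genes with a region (7.75%) and at 4 of 217 without one (1.84%). Among intronic snoRNA genes it was found at 7 of 62 with a region (11.3%) and 1 of 110 without (0.909%). The 7 include T03F7.8, the gene in which the pairing was first read. Among snoRNA genes outside introns it was found at 3 of 67 with a region and 3 of 107 without, so the difference lay mainly among the intronic genes. No snRNA gene had it.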

How the data were processed

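ChIP-seq regions of whole L4 larvae with eGFP-tagged NHR-10 (1 group, 2 biological replicates) were used as deposited for ce11. The members and lists were chosen with earlier results of these data known. Each deposited region carries a signal value of the authors, used only to rank regions within a list, per the descriptions deposited with the files. The peak caller, aligner and threshold are not given in the sources here, and the control library was not analysed here. The labels give a fragment size range of 150 to 350 bp. Of 17447 pooled entries, 2 repeats of the same coordinates were dropped, keeping the stronger. The replicate lists hold 21319 (replicate 1) and 22317 (replicate 2) regions.

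Genes came from Ensembl release 115, without 22 mitochondrial tRNA genes, and symbols from RefSeq by gene identifier, which gave the same positions for all 1087 genes. A gene was intronic where it lay in an intron of a protein-coding gene. A member took the rank of the strongest replicate region overlapping it by at least 1 bp. Depth is unknown. No test was run over regions. Intervals are exact (Clopper-Pearson) at 95%. Members were named as the 10 tRNA, 6 snRNA and 6 snoRNA regions of highest signal, all optimal snRNA and snoRNA regions, those next to the optimal limit and those with the widest replicate gap. The hosts of intronic optimal members, glr-2, and the genes with paired boxes were named after their values were seen. Positions are 1-based. Alternatives covered distance, overlap, threshold, each replicate alone, promoter windows, and, chosen after seeing the data, 1 region per gene and single-copy genes. Python 3.11.15, numpy 2.4.6 and scipy 1.17.1 were used, and the membership and overlap code was tested on simulated regions.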

Additional observations from a re-analysis of the deposited data

How the results depend on the processing

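Of 83 values recomputed under alternatives, 68 stayed within 1.5 times the count or within the interval of the value as reported, and 15 moved. The snRNA share among optimal peaks, 29.8%, ranged from 25.5 to 33.3% and stayed highest of the 3 classes. Leaving out a replicate, with the other replicate's list ranked alone, gave optimal shares of 10.5 to 11.3% for snoRNA and 6.72 to 9.48% for tRNA, against 4.45% of all regions in replicate 2's list and 4.66% in replicate 1's list. The tRNA interval without replicate 2, 6.04 to 14.0%, lay above the share of that list. Without replicate 1 the tRNA interval, 3.89 to 10.7%, included the 4.45% of replicate 2's list. Leaving out a replicate also gave a median tRNA rank of 30.2 to 32.8% of the list in place of 37.2%. With the stricter limit of the 497 strongest regions, 2.02% of tRNA and 5.0% of snoRNA members were above it, beside 25.5% of snRNA members, against 2.85% of all pooled regions. The tRNA interval at this limit, 0.658 to 4.64%, and the snoRNA interval, 2.03 to 10%, both included the share of all pooled regions. The number of snoRNA members was 215 within 500 bp. Without members in promoter windows there were 91 snoRNA and 25 snRNA members. With single-copy genes only, a choice made after seeing the data, 45 tRNA members were left, with a median rank of 46.8% of the list. With the 1988 strongest regions of each replicate in place of 994, 10.9% of tRNA and 19.3% of snoRNA members were among those of both, beside 38.3% of snRNA members and 8.07% of all pooled regions. With an overlap of 0.5 of the member's width, 4.84% of tRNA, 31.9% of snRNA and 5.71% of snoRNA members were among the strongest of both, against 3.38% of all pooled regions. Fewer members or a smaller or larger limit follow from how these alternatives are built, and for the other moves the cause was not tested. The signal scale and the depth are unknown, so no level was compared between lists. No paired analysis was possible because the study has 1 group. The control library was not analysed here, so signal that does not depend on the tag was not measured, and what it contributes at these genes was not tested.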
